A study of Homo sapiens with 6 samples.

Results

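MicroRNAs of 3 related families, miR-10, miR-99/100 and miR-125, were followed in small vesicles (exosomes) released by HCT116, a human colorectal cancer cell line. The 9 entries were taken by name from the deposited count tables: hsa-miR-10a-5p, hsa-miR-10a-3p, hsa-miR-10b-5p, hsa-miR-99a-5p, hsa-miR-99b-5p, hsa-miR-99b-3p, hsa-miR-100-5p, hsa-miR-125a-5p and hsa-miR-125b-5p (hsa, for human, is left out below), out of 2575 listed mature miRNAs, 717 of which had any count. There were 3 libraries titled as coming from cells treated with ETBF, a Bacteroides fragilis that makes an enterotoxin and lives in the gut, for 6 h at a multiplicity of infection of 500, and 3 titled untreated, whose cells received the bacterial medium without the bacterium. All cells were at passage 16 to 19, and no knockout or transgene is recorded for either group. The names of the deposited files give the opposite group to the sample titles in 6 of 6 libraries. Groups below follow the titles, and each direction turns round if the file names are right, while sizes, errors and p-values do not.

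A miRNA guides a silencing complex to messenger RNAs that pair with its seed, bases 2 to 8 from the 5′ end, so miRNAs with one seed share many targets. The miR-10 genes lie among the HOX genes, which pattern the body axis. The miR-99/100 family represses mTOR and other growth-signalling genes, and miR-125 is the vertebrate relative of lin-4, the worm miRNA that times development. The miR-99/100 and miR-125 genes sit with a let-7 gene in clusters that were copied during vertebrate evolution.

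The mature sequences show how close the paralogues are, and 8 of the 9 were matched by name in a table of RefSeq sequences (GRCh38.p14), miR-10b-5p being the other. They are written 5′ to 3′ with the seed in capitals, and those of the miR-99/100 family come first because the largest contrast lies among them.
miR-100-5p: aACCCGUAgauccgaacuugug
miR-99a-5p: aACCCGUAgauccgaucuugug
miR-99b-5p: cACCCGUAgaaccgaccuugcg
miR-10a-5p: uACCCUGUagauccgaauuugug
miR-125a-5p: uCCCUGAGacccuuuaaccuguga
miR-125b-5p: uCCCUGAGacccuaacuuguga
miR-10a-3p: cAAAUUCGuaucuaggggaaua
miR-99b-3p: cAAGCUCGugucuguggguccg
Counting from 1 at the 5′ end, miR-100-5p and miR-99a-5p differed by the single substitution A16U, outside the seed. miR-100-5p and miR-99b-5p differed at 4 positions (A1C, U11A, A16C and U21C). miR-125a-5p, 24 bases long, and miR-125b-5p, 22 bases long, shared the seed CCCUGAG and differed in their 3′ parts. The entries fall into 3 seed families on their 5p arms, while the miR-10a-3p and miR-99b-3p arms have other seeds. In the table used, miR-99b-3p shares the seed AAGCUCG with miR-99a-3p, and the miR-125 seed CCCUGAG is shared by miR-4319, which had 0 counts in every library.

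The genes lie on 5 chromosomes. The coordinates here are those of RefSeq on GRCh38.p14 and not of GRCh37.p5, the build named in the submitters' notes. miR-100-5p comes from the minus strand of chr11:122152275-122152296, and its gene MIR100 lies in an intron of the long noncoding RNA gene MIR100HG in GENCODE release 29, 5.63 kb from MIRLET7A2 and 52.4 kb from MIR125B1. miR-99a-5p comes from the plus strand of chr21:16539101-16539122, in an intron of MIR99AHG, 0.658 kb from MIRLET7C and 51.1 kb from MIR125B2. miR-99b-5p (chr19:51692618-51692639, plus strand) and miR-125a-5p (chr19:51693268-51693291, plus strand) lie in an intron of SPACA6 with MIRLET7E between them. miR-10a-5p lies at chr17:48579904-48579926 on the minus strand, in an intron of HOXB3, and its gene MIR10A overlaps an annotated exon of HOXB4. MIR10B lies in an intron of HOXD3 on chromosome 2. miR-125b-5p has 2 source genes, MIR125B1 on chromosome 11 and MIR125B2 on chromosome 21, so its counts cannot be assigned to one cluster.

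The hairpins of MIR100 and MIR99A, with the mature 5p arm in capitals, show where reads of the pair can be told apart: the opposite arms, miR-100-3p and miR-99a-3p, differ at 5 positions.
MIR100: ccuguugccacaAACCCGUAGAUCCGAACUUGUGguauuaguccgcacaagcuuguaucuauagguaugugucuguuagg
MIR99A: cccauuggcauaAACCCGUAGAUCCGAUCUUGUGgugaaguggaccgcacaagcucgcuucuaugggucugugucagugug
How the submitters assigned reads with a mismatch is not given in the sources used here, and the number of reads counted under the wrong paralogue was not tested.

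Library totals were 221981 to 417321 counts in the titled ETBF group and 200207 to 368923 in the titled untreated group. One entry, miR-7641, took 0.389% to 0.535% of titled ETBF and 12.3% to 24.4% of titled untreated counts. A larger entry, miR-148a-3p, averaged 455587 in titled ETBF and 319853 in titled untreated libraries, per 1000000 of the TMM-scaled library size. Its log2 fold change was 0.51 (standard error 0.31, edgeR adjusted p = 0.290). Entries of this size bear on values scaled by library size alone. Against the main fit, library size alone shifted log2 fold changes by a median of -0.07. Which entries lay behind this shift was not tested. All 9 entries passed the filter on low counts, as did 186 others. Gut epithelial markers, among them miR-192 and the miR-200 family, were detected for 9 of 9, and their summed level was 28877 to 32482 CPM in titled ETBF and 33140 to 34664 CPM in titled untreated libraries (CPM, counts per 1000000 of the TMM-scaled library size). Markers of muscle, liver and nerve were also present, 13 of 15, at 22931 to 26131 CPM in titled ETBF and 27714 to 28342 CPM in titled untreated libraries, with the heart markers miR-208a-3p and miR-208b-3p at 0. Stromal and endothelial markers (7 of 7) summed to 10638 to 11706 CPM and 12397 to 13987 CPM in the same order of groups, and blood-cell markers (7 of 7) to 528 to 694 CPM and 669 to 729 CPM. Between groups, 1 of 8 tested gut epithelial markers passed in edgeR, miR-375, which was lower in titled ETBF libraries. In DESeq2 1 of this list passed and in limma-voom 0, with 3 at an unadjusted p under 0.05 in edgeR. Of the other 3 lists 0 of 20 tested markers passed, nor did any by DESeq2 or limma-voom, with 4 at an unadjusted p under 0.05. HCT116 is a single cell line, and the source of the markers of other tissues in these preparations was not tested. Fewer vesicles of a source and less of a miRNA in each cannot be told apart.

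miR-100-5p, a repressor of mTOR, was the most abundant of the 9 and differed most between the groups. The titled ETBF libraries held 6092, 6734 and 9451 counts, and the titled untreated libraries 1313, 3401 and 2212. This corresponds to 20516, 30379 and 29272 CPM in titled ETBF and 6388, 9394 and 7084 CPM in titled untreated libraries. All titled ETBF libraries were above all titled untreated ones, and replicate 1 was the lowest of the titled ETBF libraries. The level averaged 26722 ± 5403 CPM in titled ETBF and 7622 ± 1573 CPM in titled untreated libraries (SD, n = 3 each), a 3.50-fold rise with a log2 fold change of 1.81 and a standard error (SE) of 0.19 (edgeR, adjusted p = 0.000259). By count it ranked 7th to 9th among all entries of a titled ETBF library and 15th to 19th in a titled untreated library. The call held in 17 of 17 settings (the main one and 16 alternatives in scaling, filter, test and libraries left out), with log2 fold changes from 1.71 to 2.00.

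**Figure D1:**
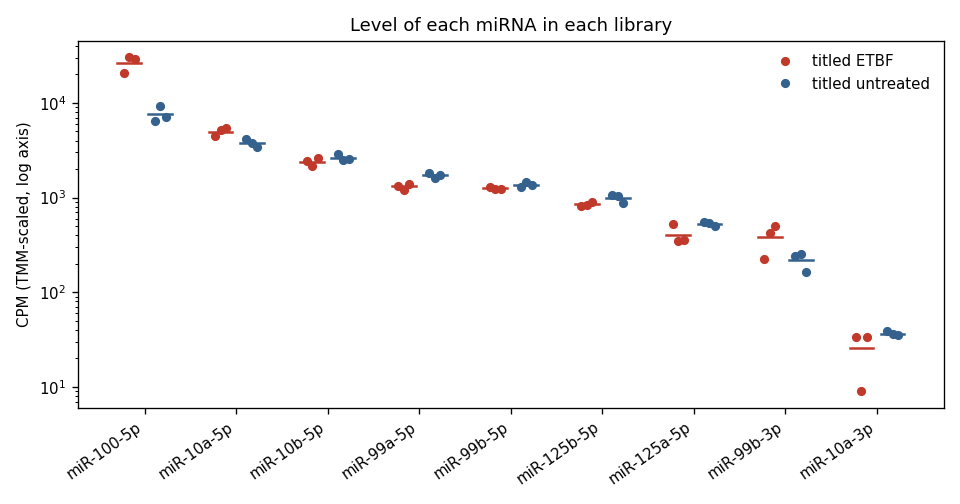
Level of the 9 miRNAs in each library, in TMM-scaled CPM on a log axis; points are libraries, lines are means of 3, titled ETBF on the left of each pair. The miR-100-5p points of the groups are apart (20516 to 30379 against 6388 to 9394 CPM), while most other members lie close together in both groups.

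The summed level of the other 8 members was 11083 to 12445 CPM in titled ETBF libraries and 10636 to 12094 CPM in titled untreated libraries, so the groups overlapped. miR-100-5p alone made up 64.9% to 72.8% of the counts of the 9 entries in titled ETBF libraries and 34.6% to 45.8% in titled untreated libraries.

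Across the 9 members, miR-100-5p and miR-10a-5p rose, miR-99a-5p fell, and 6 did not pass the threshold of adjusted p 0.05. In the whole table, 28 of 195 tested entries passed, 14.4%, with 10.8% higher and 3.59% lower. The median log2 fold change of the members was -0.13, with 3 above 0 and 6 below 0, beside a median of -0.03 over all 195 tested entries. Groups of libraries did not overlap in CPM for 5 of the 9 members, against 39% of all tested entries.

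**Figure D2:**
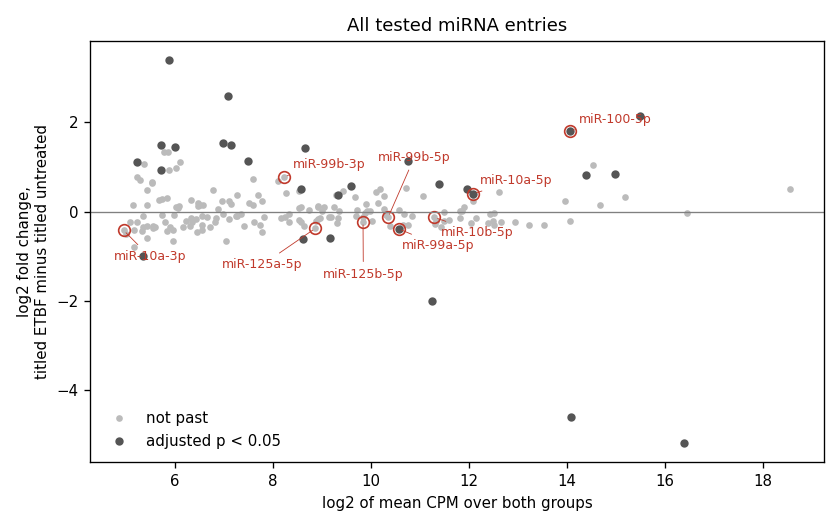
Log2 fold change, titled ETBF minus titled untreated, against the log2 of mean CPM for the 195 tested entries; dark points passed an adjusted p of 0.05 and red rings mark the 9 members. miR-100-5p stands at 1.81 among abundant entries, and the other 5p members lie between -0.39 and 0.40.

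miR-99a-5p, the paralogue that differs from miR-100-5p by A16U, went the other way. It held 396, 268 and 454 counts in titled ETBF and 377, 586 and 538 in titled untreated libraries, or 1334, 1209 and 1406 CPM and 1834, 1619 and 1723 CPM. All titled ETBF libraries were below all titled untreated ones in CPM. The mean was 1316 ± 99.7 CPM in titled ETBF and 1725 ± 108 CPM in titled untreated libraries (SD, n = 3 each), 1.31-fold lower (log2 fold change -0.39, SE 0.09, edgeR adjusted p = 0.0269). The fall passed in 11 of 17 settings. Its edgeR adjusted p was 0.129 when titled ETBF replicate 2 was left out, and 0.0854 and 0.0542 when titled untreated replicates 1 and 3 were. With library size alone as the scale it was 0.187, and with upper-quartile scaling 0.0786. The summed gut epithelial, muscle, liver and nerve, and stromal markers were lower in titled ETBF libraries as well. Such sums weigh abundant entries most. The median log2 fold change of the tested markers was -0.11, -0.21 and -0.20 in the same order of lists. Not every marker was lower, with miR-9-5p at 0.34 and miR-200c-3p at 0.01. Scaled on the muscle, liver and nerve list, miR-99a-5p had -0.20 (edgeR adjusted p = 0.130, against 0.00817 to 0.187 over the settings). That scale shifted log2 fold changes by a median of 0.18 over the tested entries, so it does not test a source. The part of those sources in the fall was not tested.

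miR-99b-5p, the third miRNA with the seed ACCCGUA, did not pass. It stood at 1300, 1232 and 1233 CPM in titled ETBF and 1304, 1450 and 1348 CPM in titled untreated libraries. The groups came within 4 CPM of each other, at titled ETBF replicate 1 and titled untreated replicate 1, and the log2 fold change was -0.13 (SE 0.08, edgeR adjusted p = 0.332). It was 0.06 when libraries were scaled on the muscle, liver and nerve list.

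Ratios between members within a library do not depend on how libraries are scaled, and 10 such ratios were compared. miR-100-5p held 15.4, 25.1 and 20.8 times the counts of miR-99a-5p in titled ETBF libraries and 3.48, 5.80 and 4.11 times in titled untreated libraries. The log2 ratio averaged 4.32 ± 0.36 in titled ETBF and 2.12 ± 0.38 in titled untreated libraries (SD, n = 3 each), and the difference was 2.20 with an SE of 0.30, a 4.59-fold change of the ratio (exact permutation test, two-sided, p = 0.1, 0.2 adjusted over the 10 ratios). This p is the smallest that 3 against 3 libraries allow, so none of the 10 could reach 0.05. The groups did not overlap, and the difference ran from 2.04 to 2.40 over the settings, each library left out in turn among them.

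The same contrast held against the third paralogue. miR-100-5p exceeded miR-99b-5p 15.8, 24.6 and 23.7 times in titled ETBF and 4.89, 6.47 and 5.25 times in titled untreated libraries, a difference in log2 ratio of 1.93 (SE 0.24, exact permutation p = 0.1). miR-99a-5p and miR-99b-5p were closer to parity, with a ratio of 1.03, 0.982 and 1.14 in titled ETBF and 1.41, 1.12 and 1.28 in titled untreated libraries, and the groups overlapped (difference -0.27, SE 0.12, exact permutation p = 0.2). As a share of the 3 miRNAs with this seed, miR-100-5p made up 88.6%, 92.6% and 91.7% of counts in titled ETBF and 67.1%, 75.4% and 69.8% in titled untreated libraries. The summed level of the seed family was 29290 ± 5340 CPM in titled ETBF and 10710 ± 1546 CPM in titled untreated libraries (SD, n = 3 each). miR-99a-5p held at most 5.76% of the family's counts in a titled ETBF library and at least 12.99% in a titled untreated one.

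**Figure D3:**
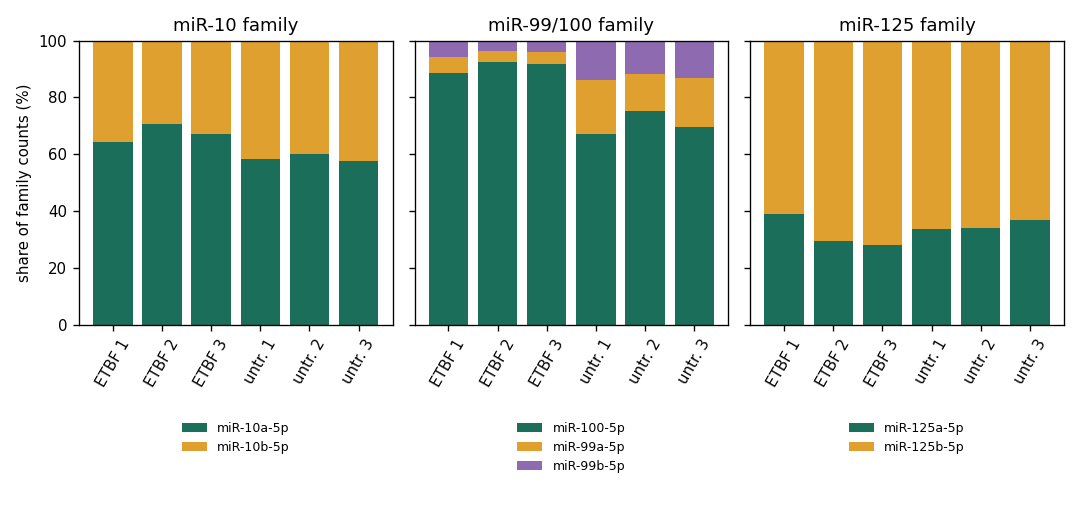
Share of each member in the counts of its 5p seed family, in percent, for each library, with titled ETBF on the left and titled untreated (untr.) on the right. miR-100-5p takes 88.6% to 92.6% of the miR-99/100 family in titled ETBF and 67.1% to 75.4% in titled untreated libraries, miR-10a-5p is also a larger share in each titled ETBF library, and the miR-125 shares overlap.

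In the miR-10 family, miR-10a-5p, from the HOXB cluster, rose modestly. The titled ETBF libraries stood at 4425, 5143 and 5389 CPM and the titled untreated libraries at 4125, 3737 and 3462 CPM, without overlap. The means were 4986 ± 501 CPM in titled ETBF and 3775 ± 333 CPM in titled untreated libraries (SD, n = 3 each), a 1.32-fold rise (log2 fold change 0.40, SE 0.11, edgeR adjusted p = 0.0412). It passed in 11 of 17 settings. The edgeR adjusted p was 0.0644 and 0.147 when titled ETBF replicates 2 and 3 were left out in turn, and 0.0850 and 0.196 when titled untreated replicates 2 and 3 were. With library size alone it was 0.401, and with the filter of 10 CPM in 3 libraries 0.0587.

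miR-10b-5p, from the HOXD cluster, stood at 2435, 2147 and 2639 CPM in titled ETBF and 2924, 2469 and 2530 CPM in titled untreated libraries. The groups overlapped and it did not pass (log2 fold change -0.13, SE 0.11, edgeR adjusted p = 0.439), with 0.05 when scaled on the muscle, liver and nerve list. The ratio of miR-10a-5p to miR-10b-5p was 1.82, 2.39 and 2.04 in titled ETBF libraries, above the 1.41, 1.51 and 1.37 of titled untreated libraries. The difference in log2 ratio was 0.53 (SE 0.12, exact permutation p = 0.1), from 0.43 to 0.63 over the settings. miR-10a-5p accordingly made up 67.4% ± 3.03 of the pair's counts in titled ETBF and 58.8% ± 1.25 in titled untreated libraries (SD, n = 3 each).

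In the miR-125 pair neither member passed and the ratio overlapped between groups. miR-125b-5p, the more abundant, had 812, 835 and 895 CPM in titled ETBF and 1075, 1030 and 868 CPM in titled untreated libraries. miR-125a-5p had 522, 347 and 353 CPM in titled ETBF and 550, 536 and 506 CPM in titled untreated libraries. miR-125b-5p had a log2 fold change of -0.22 (SE 0.11, edgeR adjusted p = 0.180) and miR-125a-5p one of -0.37 (SE 0.16, edgeR adjusted p = 0.147). The ratio of miR-125a-5p to miR-125b-5p was 0.644, 0.418 and 0.396 in titled ETBF and 0.512, 0.521 and 0.584 in titled untreated libraries, with overlap (difference in log2 ratio -0.18, SE 0.23, exact permutation p = 0.5). The difference was -0.40 when titled ETBF replicate 1 was left out and -0.05 when titled ETBF replicate 3 was.

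Among the titled ETBF libraries, replicate 1 stood apart for miR-125a-5p. It had 522 CPM, inside the titled untreated range, while titled ETBF replicates 2 and 3 were below that range. Without this library miR-125a-5p had a log2 fold change of -0.63 (edgeR adjusted p = 0.00172). That library also lay nearer the other group over all tested entries, at 3.54 on the first principal component against 6.17 and 6.25 for titled ETBF replicates 2 and 3 and -6.17 to -4.35 for the titled untreated libraries. Without it, 5 of the 9 members passed, 3 higher and 2 lower. That fit called 59 of 210 tested entries, against 28 of 195 in the main fit. Its adjusted p-values also fell where the standard error grew. miR-99a-5p had an SE of 0.12 and an edgeR adjusted p of 0.00817 there, against 0.09 and 0.0269 in the main fit. How much of these calls came from the values of the removed library, and how much from the changed fit, was not tested.

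**Figure D4:**
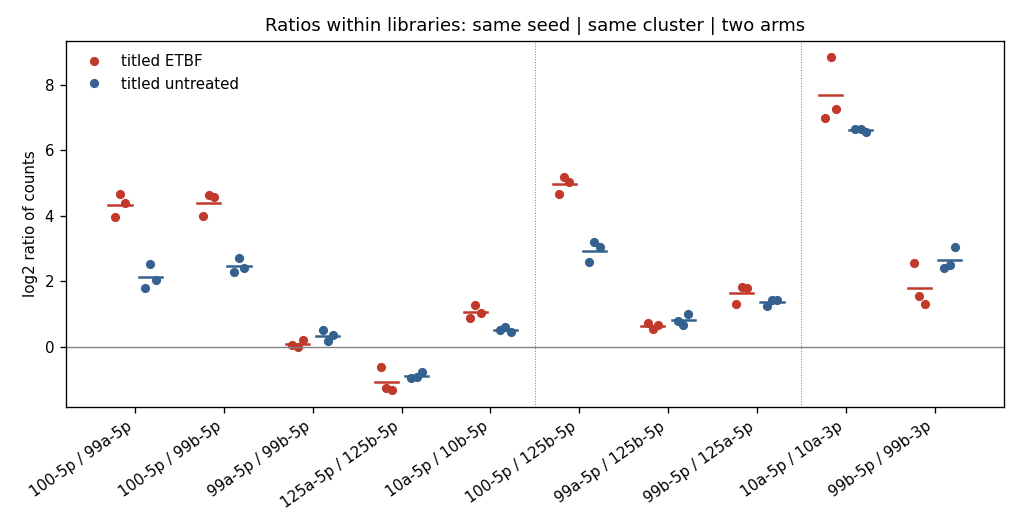
Log2 ratio of counts between members in each library, for 5 pairs with one seed, 3 pairs from one cluster and 2 pairs of arms from one hairpin; points are libraries and lines are means of 3. The 3 ratios with miR-100-5p on top are about 2 higher in titled ETBF libraries, and the miR-99a-5p, miR-125 and chromosome 19 ratios overlap.

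Both 3p arms were rarer than their 5p partners, miR-10a-3p far more so than miR-99b-3p. miR-99b-3p, the opposite arm of the miR-99b hairpin, had 222, 424 and 496 CPM in titled ETBF and 243, 257 and 163 CPM in titled untreated libraries. Titled ETBF replicate 1 lay within the titled untreated range and the other two above it (log2 fold change 0.78, SE 0.30, edgeR adjusted p = 0.0939). Without that library the log2 fold change was 1.04 (edgeR adjusted p = 2.53e-05), and the entry passed in 4 of 17 settings. miR-99b-5p held 5.81, 2.89 and 2.48 times the counts of miR-99b-3p in titled ETBF libraries and 5.32, 5.62 and 8.18 times in titled untreated libraries (difference in log2 ratio -0.85, SE 0.43, exact permutation p = 0.3).

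miR-10a-3p was near the lower limit of these libraries, where 3 counts correspond to 8.29 to 14.6 CPM. It had 10, 2 and 11 counts in titled ETBF and 8, 13 and 11 in titled untreated libraries (log2 fold change -0.42, SE 0.39, edgeR adjusted p = 0.491). The low value of titled ETBF replicate 2 gave the highest of the arm ratios, 456.2 counts of miR-10a-5p for each of miR-10a-3p, with 125.2 and 151 in the other titled ETBF libraries and 94.0 to 100.3 in titled untreated libraries. The difference in log2 ratio, 1.07 (SE 0.58), was 0.49 without that library.

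The order of mean levels was the same in both groups. miR-100-5p was followed by miR-10a-5p, miR-10b-5p, miR-99a-5p, miR-99b-5p, miR-125b-5p, miR-125a-5p, miR-99b-3p and miR-10a-3p in titled ETBF and in titled untreated libraries alike. In titled ETBF libraries miR-99a-5p and miR-99b-5p overlapped, as did miR-125a-5p and miR-99b-3p. All other neighbours were separated in 3 of 3 libraries of each group. The step from miR-100-5p to miR-10a-5p was 5.36-fold in titled ETBF and 2.02-fold in titled untreated libraries. The mature forms printed above are 22 to 24 bases long, so CPM was compared between miRNAs without a correction for length; how well each sequence was captured in the libraries was not measured.

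None of the tested cluster neighbours of miR-100-5p passed the threshold in the main edgeR fit. In the chromosome 11 cluster, miR-100-5p held 25.2, 36.3 and 32.6 times the counts of miR-125b-5p in titled ETBF and 5.93, 9.11 and 8.15 times in titled untreated libraries, a difference in log2 ratio of 2.03 (SE 0.24, exact permutation p = 0.1). miR-125b-5p also draws on chromosome 21. let-7a-5p, which MIRLET7A2 in the same host gene and further loci encode, had 17317 ± 1015 CPM in titled ETBF and 14603 ± 736 CPM in titled untreated libraries (SD, n = 3 each; log2 fold change 0.25, SE 0.10, edgeR adjusted p = 0.111). It passed when libraries were scaled on the muscle, liver and nerve list (0.43, edgeR adjusted p = 0.0167), 1 of 17 settings.

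In the chromosome 21 cluster the log2 fold changes were -0.39 for miR-99a-5p and -0.28 for let-7c-5p (SE 0.10, edgeR adjusted p = 0.0922). The ratio of miR-99a-5p to miR-125b-5p overlapped between groups (difference in log2 ratio -0.17, SE 0.11, exact permutation p = 0.2). In the chromosome 19 cluster they were -0.13 for miR-99b-5p, -0.15 for let-7e-5p (SE 0.11, edgeR adjusted p = 0.417) and -0.37 for miR-125a-5p. There the ratio of miR-99b-5p to miR-125a-5p overlapped too (difference in log2 ratio 0.28, SE 0.18, exact permutation p = 0.3). Of 7 let-7 entries of these clusters, 4 could be tested and 0 passed in the main edgeR fit, in DESeq2 or in limma-voom, with 2 at an unadjusted p under 0.05 in edgeR (let-7a-5p and let-7c-5p). let-7c-5p passed in 1 of 17 settings, when titled ETBF replicate 1 was left out (log2 fold change -0.35, edgeR adjusted p = 0.0313).

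**Figure D5:**
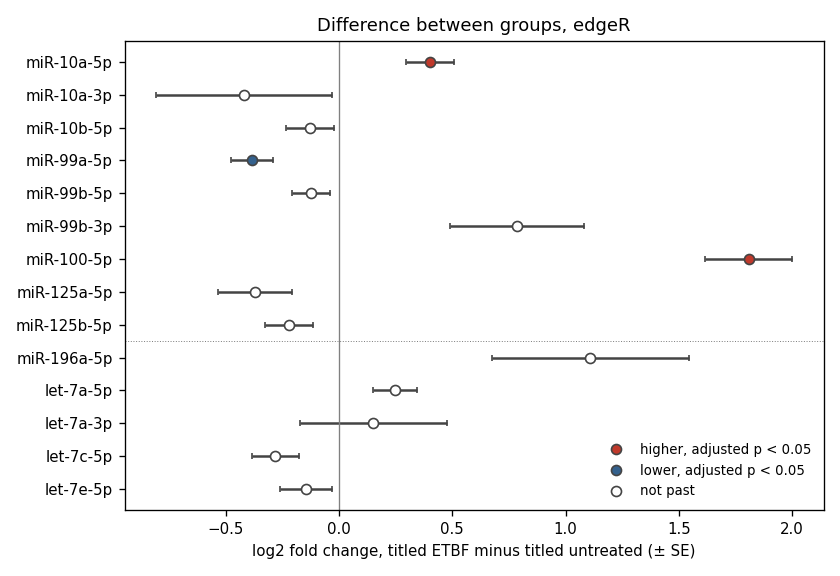
Log2 fold change, titled ETBF minus titled untreated, with its standard error from edgeR, for the 9 members (above the dotted line) and the 5 tested entries from their clusters and from HOX clusters (below it). Filled points passed an adjusted p of 0.05: miR-100-5p at 1.81 and miR-10a-5p at 0.40 above 0, miR-99a-5p at -0.39 below.

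The remaining arms of the same hairpins were too sparse to test. miR-100-3p had 0 counts in every library, and miR-99a-3p had 1 count in all. miR-125b-1-3p, which comes from chromosome 11 alone, had 8, 5 and 9 counts in titled ETBF and 1, 2 and 4 in titled untreated libraries, without overlap. Tested without the low-count filter, its log2 fold change was 1.65 (SE 0.67, edgeR adjusted p = 0.128). miR-125b-2-3p, from chromosome 21 alone, had 0, 0 and 3 counts in titled ETBF and 0 in each titled untreated library. let-7a-2-3p, also from the chromosome 11 cluster, had 1, 0 and 0 counts in titled ETBF and 0, 11 and 2 in titled untreated libraries.

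Among other HOX-cluster miRNAs, miR-196a-5p was tested. It had 28, 32 and 17 counts in titled ETBF and 5, 13 and 20 in titled untreated libraries, with overlap in counts and in CPM (log2 fold change 1.11, SE 0.44, edgeR adjusted p = 0.108). It passed in 3 of 17 settings: with library size alone (adjusted p = 0.0310), without the low-count filter (0.00569) and when titled ETBF replicate 1 was left out (0.0498). miR-196b-5p totalled 22 counts in titled ETBF and 15 in titled untreated libraries, and miR-615-3p 7 and 4.

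Over the 6 libraries, the entries whose centred log2 CPM profile lay nearest to that of miR-100-5p were miR-7-5p, miR-149, miR-95-3p and miR-186-5p, at a root mean square difference of 0.28, 0.35, 0.35 and 0.36. miR-99a-5p stood 170th by this measure of the 194 other tested entries, at 1.14. The entries nearest to miR-99a-5p were miR-203a, miR-30a-5p, let-7c-5p and miR-205-5p, at 0.06 to 0.08, and let-7c-5p is its cluster neighbour on chromosome 21. Those nearest to miR-10a-5p were miR-185-5p, miR-29b-3p, miR-320a and miR-27a-5p, at 0.06 to 0.11. These distances describe 6 libraries in 2 groups and carry no test.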

How the data were processed

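Per the labels' protocols, RNA of exosomes collected by centrifugation was taken up in Trizol, and 100 ng per library went into an Illumina TruSeq kit. The submitters' processing notes name featureCounts, Trimmomatic, FastQC and GRCh37.p5, and the sources used here give neither versions nor the aligner nor the handling of reads with several positions. The deposited files hold raw counts per mature miRNA. Some reads of identical copies appear to be counted more than once, since miR-199a-3p held 2 to 2.002 times the counts of miR-199b-3p. For miR-125b-5p, with 2 loci, the count was odd in 6 of 6 libraries, so not every read was counted 2 times. Partial double counting was not tested, and miR-199a-3p itself had an odd count, 1903, in titled untreated replicate 3.

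The members and lists were chosen with earlier results of these data known. Entries kept by filterByExpr (minimum count 10) were tested with TMM scaling and the quasi-likelihood test of edgeR (two-sided, adjusted by Benjamini-Hochberg over 195 entries, threshold 0.05), and SE was derived as the size of the log2 fold change divided by the root of F. Ratios had 0.5 added to both counts. Nothing says that replicates are separate cultures, so p-values rest on a spread between libraries that may be technical. Replicates differed beyond sampling noise (chi-square over degrees of freedom 10.04 to 104.5). The 3-count floor covers counting error only.

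Named entries were the 9 members, the other arms of their hairpins, let-7 entries of their clusters, miR-196a, miR-196b and miR-615, and the 4 entries nearest in profile to miR-100-5p, miR-99a-5p and miR-10a-5p. On simulated data for this comparison (2575 entries, 200 changed), 81.8% of 33 tested 2-fold changes and 100% of 29 tested 4-fold changes were recovered and 3.45% of calls were false. No recovery is given for smaller changes, such as the 1.32-fold rise of miR-10a-5p and the 1.31-fold fall of miR-99a-5p. Fits were run in R 4.3.3 with edgeR 4.0.16; DESeq2 1.42.0, limma 3.58.1 (voom), other scalings, filters, a replicate term and single libraries left out served as alternatives.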

Additional observations from a re-analysis of the deposited data

How the results depend on the processing

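miR-100-5p passed in all 17 settings. The 3 calls among the members (2 higher, 1 lower) became 1 (1 and 0) with library size only, 1 higher under the filter of 10 CPM in 3 libraries, and 0 lower on 2 other scales, that of the other-tissue markers and the upper quartile; with single libraries left out there were 1 to 5 (1 to 3 higher, 0 to 2 lower), and the cause was not tested. All 28 calls (21 and 7, 75% higher) were among 195 tested entries. They became 48 (44 and 4, 91.7%) when scaled on other-tissue markers, which shifted log2 fold changes by a median of 0.18. With no filter there were 51 calls (39 and 12), but among 717 tested entries. Upper-quartile scaling gave 36 higher (85.7%), and library size only gave 4 lower. Without miR-7641, miR-6087 and miR-1246 there were 4 lower (88.2% higher). Leaving out single libraries gave 17 to 59 calls (12 to 38 and 4 to 21) among 202 to 211 tested entries. Without titled ETBF replicate 1, 64.4% of calls were higher. Scaled on other-tissue markers, miR-10b-5p (0.0526), miR-99b-5p (0.0595) and let-7e-5p (0.0330) turned positive; let-7a-3p (0.15) ran from -0.0789 (titled untreated replicate 3 left out) to 0.463 without single libraries, with -0.0697 for titled ETBF replicate 2. All 10 ratios kept their sign in each setting. The titles name no shared culture for a replicate number, so the numbers were not taken as pairs. Same-numbered libraries deviated together with positive r of 0.18, 0.10 and 0.05 across entries. The r of other combinations ran from -0.16 to 0.07, and titled ETBF replicate 3 correlated more with titled untreated replicate 2 (0.07). The replicate block gave 38 calls, 26 of them among the 28, with the same 3 members. It left the ratios as they were (difference for miR-100-5p over miR-99a-5p 2.20, exact sign-flip p = 0.25, the smallest possible). Entries with few counts, such as miR-10a-3p, are limited by depth.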
